A study of Mus musculus with 3 samples.

Results

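9 genes that act in marrow adipogenic and reticular stroma were followed through the cells of sorted mouse bone lining: Lepr, Adipoq, Lpl, Pparg, Cebpa, Ebf1, Ebf3, Foxc1 and Prrx1. They were taken by gene symbol from the 32285 genes counted in each library, and all 9 were found in all 3 libraries. Cells were sorted by lineage markers that include none of the 9. Members and markers were, however, chosen with earlier results of these data known. High levels in reticular cells are thus a description and no independent support. Droplet single-cell RNA-seq was run on bone-lining cells (BLCs), which cover the surfaces of bone, from wild-type (WT) mice. They were freed with collagenase from femora, tibias and iliac bones once the marrow had been flushed out, and Alcam+Sca-1- cells without CD45, Ter119 and CD31 were collected by flow cytometry. The 3 libraries, replicates 1, 2 and 3, form 1 group with no treatment, so populations of cells within these libraries were compared. The labels give neither the age nor the number of the animals behind each library and do not say that the replicates came from separate animals. With the library as a block, p-values measure the spread that remains within populations once differences between the 3 libraries are removed. In tests between populations this spread was estimated from the sums of all populations together. It may be partly technical.

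Bone marrow holds a network of reticular stromal cells, often called Cxcl12-abundant reticular cells, that carry the leptin receptor and supply haematopoietic stem cells and lymphoid progenitors with Cxcl12 and stem cell factor. These cells can give rise to marrow adipocytes and to osteoblasts, and they are known to transcribe several genes of the adipocyte programme without storing fat. In adipogenesis the nuclear receptor Pparg and the factor Cebpa sustain each other and switch on genes of lipid uptake and adipokines, whereas Ebf1, Ebf3 and Foxc1 are known for maintaining the reticular state.

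The members are encoded on different chromosomes, with the exception of Cebpa and Ebf3, which lie far apart on chromosome 7 (coordinates of mouse build GRCm38, also called mm10). Lepr spans chr4:101717404-101815352, Adipoq chr16:23146536-23158028, Lpl chr8:68880491-68907448 and Pparg chr6:115360951-115490399. Cebpa spans chr7:35119293-35121928, Ebf1 chr11:44617317-45008091 and Ebf3 chr7:137193673-137314445. Foxc1 spans chr13:31806633-31812476 and Prrx1 chr1:163245119-163313710. Ebf3 and Prrx1 are on the minus strand and the others on the plus strand. Annotated antisense genes overlap Pparg, Cebpa, Ebf1, Ebf3 and Prrx1, and whether the counting used strand is not given in the sources used here. The levels of different genes are not compared with each other, since 3′ counting and intronic reads weigh genes differently.

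RefSeq promoters (build GRCm38.p6) were at hand for 8 members, with 12 start sites in all; Lpl had no entry. The 250 bases before each start were searched on both strands for CCCNNGGG, the core bound by EBF factors, TTGCNNAA, a C/EBP core, and AGGTCA, the hexamer bound by nuclear receptors such as Pparg. The promoters with a match are printed because products of the members are known to bind such motifs, with the matched letters in capitals and each sequence written 5′ to 3′ along the gene.
Pparg, promoter 1 (chr6:115360894-115361143, plus strand): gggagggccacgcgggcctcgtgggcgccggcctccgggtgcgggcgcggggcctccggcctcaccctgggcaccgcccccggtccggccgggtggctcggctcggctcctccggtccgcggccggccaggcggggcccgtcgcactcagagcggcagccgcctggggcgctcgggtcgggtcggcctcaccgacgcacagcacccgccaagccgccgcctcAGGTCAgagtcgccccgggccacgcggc
Pparg, promoter 2 (chr6:115362099-115362348, plus strand): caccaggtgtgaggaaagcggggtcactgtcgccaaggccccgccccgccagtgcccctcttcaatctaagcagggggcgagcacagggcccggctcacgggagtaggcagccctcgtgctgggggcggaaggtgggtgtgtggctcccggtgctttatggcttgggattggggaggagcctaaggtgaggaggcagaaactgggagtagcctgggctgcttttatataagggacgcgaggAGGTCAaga
Pparg, promoter 3 (chr6:115421816-115422065, plus strand): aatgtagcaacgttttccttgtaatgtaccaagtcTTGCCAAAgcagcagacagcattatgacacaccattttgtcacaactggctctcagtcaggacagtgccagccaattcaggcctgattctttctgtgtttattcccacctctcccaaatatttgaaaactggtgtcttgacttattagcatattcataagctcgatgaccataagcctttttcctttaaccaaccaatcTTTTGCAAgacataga
Ebf3 (chr7:137314446-137314695, minus strand): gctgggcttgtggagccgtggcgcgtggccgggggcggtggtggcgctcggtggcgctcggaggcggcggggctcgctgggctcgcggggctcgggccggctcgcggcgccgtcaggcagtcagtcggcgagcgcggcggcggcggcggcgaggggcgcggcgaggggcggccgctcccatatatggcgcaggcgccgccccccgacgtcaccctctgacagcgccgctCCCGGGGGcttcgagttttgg
The EBF core lay in 1 of the 12 promoters, that of Ebf3, with its first base at -21 from the start, where -1 is the last base printed. It lay in 11.8% of 32851 promoters of all genes. The C/EBP core lay in 1 of 12, the Pparg promoter labelled 3, at -215 and -16, against 9.56% of all promoters. The hexamer lay in 2 of 12, at -28 in Pparg promoter 1 and at -9 in promoter 2, against 14.0% of all promoters. A match is a description of these letters only.

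A cell was gated to a lineage when it held at least a share of 0.5 of that lineage's markers, a marker being held with at least 1 UMI, and when this share exceeded that of every other lineage by at least 0.25. UMIs are unique molecular identifiers, each standing for 1 captured transcript. The 8 reticular markers were Cxcl12, Kitl, Angpt1, Gas6, Hp, Esm1, Agt and Vcam1. After the cell filter 2527, 6725 and 10230 cells remained, with a median of 5663, 10034 and 5995 UMIs per cell. The reticular gate took 619, 74 and 102 cells, or 24.5% (95% exact binomial interval 22.8 to 26.2), 1.10% (0.865 to 1.38) and 0.997% (0.814 to 1.21) of the cells of replicates 1, 2 and 3. Chondrocyte-gated cells numbered 279, 5630 and 8363, osteoblast-gated cells 47, 160 and 256, and tendon-gated cells 92, 35 and 44. Mural cells (53 cells), fibroblasts (10) and glia (41) reached 10 cells in replicate 1 only. Replicate 1 thus stood apart in its makeup, and its chondrocyte gate held Col2a1, the main cartilage collagen, at 1664 CPM against 30325 and 25671 CPM in the other libraries. The 8 chondrocyte markers summed to 5500 CPM in that gate against 47136 and 39566 CPM. Tendon markers (909 against 328 and 370 CPM) and leukocyte markers (657 against 148 and 169 CPM) were higher in it. The osteoblast gate of replicate 1 held the 7 osteoblast markers at 52819 CPM against 165011 and 158209 CPM. Tendon markers were higher there (969 against 115 and 72.6 CPM), as were fibroblast markers (456 against 49.0 and 46.3 CPM). Chondrocyte markers were lower (1742 against 4653 and 5642 CPM). The part of this in the results was not tested. CPM are counts per 1000000, a gene's UMIs scaled to that total over all the cells in that gate and library. 5, 9 and 28 cell barcodes were shared between pairs of libraries, none of them by reticular cells.

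The markers that set the gate were all present in the reticular cells of each library, summing to 26539, 34173 and 28181 CPM, of which Cxcl12 alone made 15793, 17618 and 15945. Tendon cells held the same list at 315 to 462 CPM, osteoblast cells at 73.0 to 453 CPM and chondrocytes at 79.4 to 150 CPM. In the other direction, the 8 chondrocyte markers summed to 107, 1430 and 2005 CPM in reticular cells, and the 7 osteoblast markers to 196, 1677 and 493 CPM. Their part in the results that follow was not tested. Markers of tendon (74.2 to 158 CPM) and fibroblasts (14.0 to 46.1 CPM) were low in reticular cells, and Ptprc, which encodes CD45, was at 0 in all 3 libraries. Ly6a, the gene of Sca-1, was at 11.6, 0 and 0 CPM. Erythroid cells should hold none of the 9 genes, and every member was between 0 and 5.09 CPM there. This is the background in erythroid cells only. In replicate 1 their median depth was 10832 UMIs, against 2178 in glia, and Cxcl12 was at 15.4 CPM in erythroid cells and 148 CPM in glia. The part of free RNA in shallower gates was not tested.

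Lepr, the receptor for the adipocyte hormone leptin, was at 1331, 1011 and 1074 CPM in reticular cells of replicates 1, 2 and 3 (1139 ± 170, mean ± SD, n = 3). Tendon cells held 167, 15.4 and 26.0 CPM, osteoblast cells 36.6, 18.2 and 13.9 CPM, and chondrocytes 38.1, 6.89 and 7.17 CPM. The reticular range did not overlap any of these, whereas the 3 lower populations overlapped each other. The high tendon value of replicate 1 came from 93 UMIs in 22 of 92 cells, and 34.4% of them lay in 3 cells. Mural cells of replicate 1 held 13.5 CPM and fibroblasts 14.5 CPM, the latter from 1 UMI, and leukocytes held 0.567, 0 and 1.69 CPM.

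Adipoq, which encodes the adipokine adiponectin, was at 1296, 2636 and 2316 CPM in reticular cells (2082 ± 700), lowest in replicate 1. Against these, chondrocytes held 6.04, 0.617 and 0.641 CPM. Osteoblast cells held 4 UMIs, all in replicate 1 (13.3 CPM), and 0 in the others, which allows up to 3.42 and 4.63 CPM. Tendon cells held 1 UMI, in replicate 2 (3.84 CPM). The 95% limits given by a count of 0 (3 UMIs) and all counting intervals here cover counting error only.

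Lpl, the lipoprotein lipase that releases fatty acids from circulating triglycerides, was at 707, 1362 and 759 CPM in reticular cells (942 ± 364). Tendon cells came next with 62.7, 111 and 146 CPM (107 ± 41.7), and mural cells and fibroblasts of replicate 1 held 64.1 and 72.5 CPM, within the range of the tendon cells. Leukocytes followed with 8.22, 19.1 and 10.6 CPM, of which at least 54.5% lay in 3 cells in each library. Osteoblast cells held 13.3, 0 and 1.54 CPM and chondrocytes 3.25, 1.15 and 0.707 CPM, which overlapped each other.

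Pparg, the nuclear receptor that directs adipocyte differentiation, was at 232, 116 and 118 CPM in reticular cells (155 ± 66.3). Replicate 1 was above the others by more than counting error, its 95% Poisson interval being 217 to 247 CPM against 88.3 to 150 and 86.5 to 156 CPM. Mural cells of replicate 1 held 122 CPM, the level of reticular cells in the other libraries, but 61.1% of their 36 UMIs lay in 3 cells. Chondrocytes held 5.11, 8.46 and 12.4 CPM. Osteoblast and tendon cells each held 1 UMI in all 3 libraries together.

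Cebpa, the C/EBP factor that acts with Pparg and is also needed for myeloid blood cells, was at 76.5, 114 and 90.1 CPM in reticular cells (93.6 ± 19.2). Leukocytes formed the next level with 24.1, 33.9 and 39.0 CPM (32.3 ± 7.57), spread over 24.2%, 33.6% and 28.4% of the cells. The reticular and leukocyte ranges did not overlap. Tendon cells held 7.17, 11.5 and 5.20 CPM, osteoblast cells 6.66, 3.42 and 7.72 CPM and chondrocytes 5.58, 4.12 and 4.52 CPM, and these overlapped.

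Ebf1, an EBF factor of stroma, fat and B cells, was high in several lineages. Reticular cells held 1702, 1202 and 876 CPM (1260 ± 416) and tendon cells 1030, 1014 and 312 CPM (786 ± 410), and these ranges overlapped. Fibroblasts (1045 CPM) and mural cells (894 CPM) of replicate 1 lay inside the same span. Osteoblast cells held 440, 166 and 113 CPM and chondrocytes 55.3, 68.6 and 56.6 CPM. Leukocytes had 61.5, 49.5 and 142 CPM, but in only 8, 7 and 17 cells. A single leukocyte of replicate 1 carried 154 of the 217 UMIs of that gate.

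Ebf3, the paralogue known from Cxcl12-abundant reticular cells, was by contrast low outside them. It was at 1337, 566 and 543 CPM in reticular cells (815 ± 452), with replicate 1 above the others beyond counting error (1301 to 1374 CPM against 502 to 636 and 473 to 621). Tendon cells held 39.4, 30.7 and 67.6 CPM and mural cells 47.3 CPM. Osteoblast cells held 30.0, 5.70 and 6.18 CPM and chondrocytes 6.04, 7.79 and 6.86 CPM.

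Foxc1, a forkhead factor of the reticular niche and of developing skeleton, was nearly the same in reticular cells of the 3 libraries, at 242, 231 and 233 CPM (235 ± 6.05). Chondrocytes were close below with 142, 173 and 174 CPM (163 ± 18.3), and the ranges did not overlap. Mural cells held 108 CPM, osteoblast cells 70.0, 42.2 and 41.7 CPM and tendon cells 43.0, 53.8 and 57.2 CPM, of which the last 2 populations overlapped.

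Prrx1, a homeobox factor of limb mesenchyme, was shared by reticular cells (317, 319 and 381 CPM; 339 ± 36.2) and tendon cells (358, 261 and 510 CPM; 376 ± 125), with overlapping ranges. Fibroblasts (319 CPM) and mural cells (307 CPM) of replicate 1 were at a like level. Osteoblast cells held 89.9, 132 and 107 CPM and chondrocytes 41.4, 46.5 and 48.1 CPM. Leukocytes and erythroid cells held at most 4.34 CPM.

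**Figure D1:**
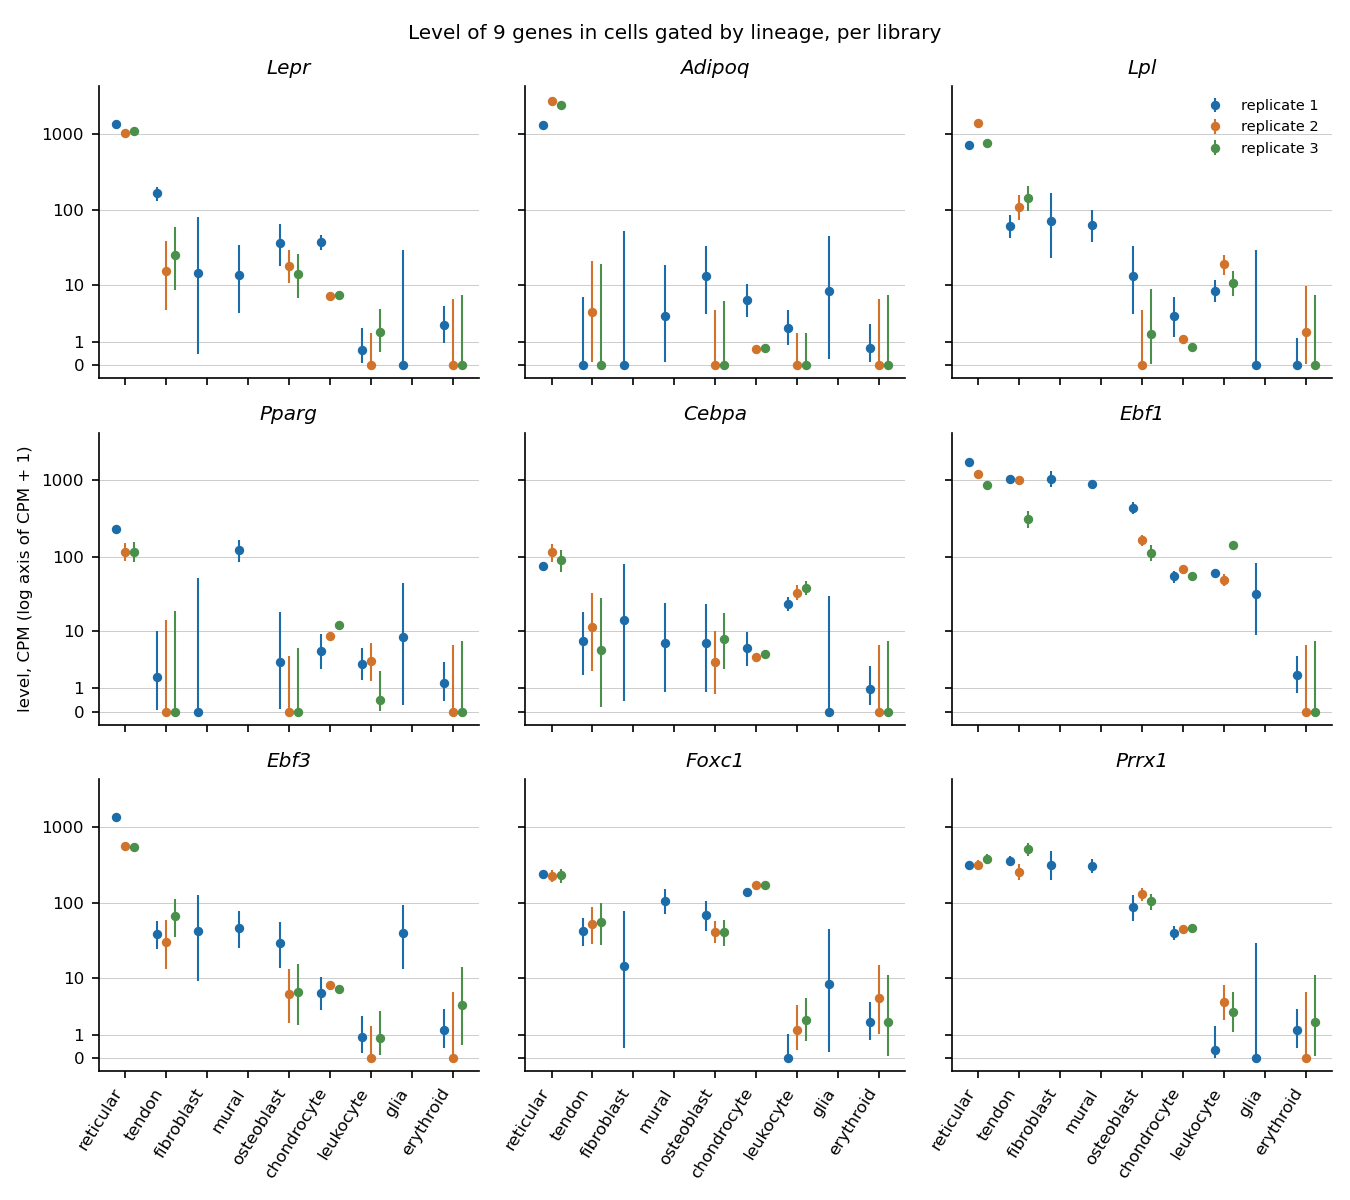
Level of each gene (CPM, on a log axis of CPM + 1) in gated cells, with 1 point per library of at least 10 cells and bars for the 95% Poisson interval. Lepr, Adipoq and Ebf3 stand above every other lineage in the reticular cells, Ebf1 and Prrx1 reach like levels in tendon cells, and Foxc1 in chondrocytes (142 to 174 CPM) is close to its reticular level.

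Taken over whole libraries, without gating, most of these genes looked far apart between libraries. Lepr was at 276, 15.3 and 15.0 CPM of all UMIs, Adipoq at 255, 19.8 and 16.0 CPM and Ebf3 at 265, 12.6 and 10.98 CPM, whereas inside the reticular gate the libraries were much closer or, for Adipoq, in another order. Foxc1 ran the other way over whole libraries (85.7, 161 and 159 CPM). The share of reticular cells (24.5%, 1.10% and 0.997%) moved with the first 3 of these values and the share of chondrocytes (11.04%, 83.7% and 81.7%) with Foxc1. The cells that held a gene's UMIs differed accordingly. Reticular cells held 94.7%, 84.0% and 83.0% of all Adipoq UMIs and 88.6%, 62.2% and 61.1% of Lpl UMIs. They held 89.8%, 41.6% and 41.3% of Lepr UMIs, and 87.3%, 8.01% and 5.62% of Pparg UMIs. In replicates 2 and 3 chondrocyte-gated cells held 81.5% and 89.8% of Pparg UMIs and 94.9% and 95.8% of Foxc1 UMIs. For Pparg this went with the low CPM of that gate given above, and its UMIs lay in 291 of 5630 and 333 of 8363 chondrocytes. The chondrocyte gate also held 54.5% and 54.7% of Ebf3 UMIs there, against 28.3% and 28.4% in reticular cells. It held 39.7% and 42.0% of Lepr UMIs, and 58.2% to 75.7% of those of Ebf1, Cebpa and Prrx1. Ungated cells held 2.92% to 32.6% of a member's UMIs.

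**Figure D2:**
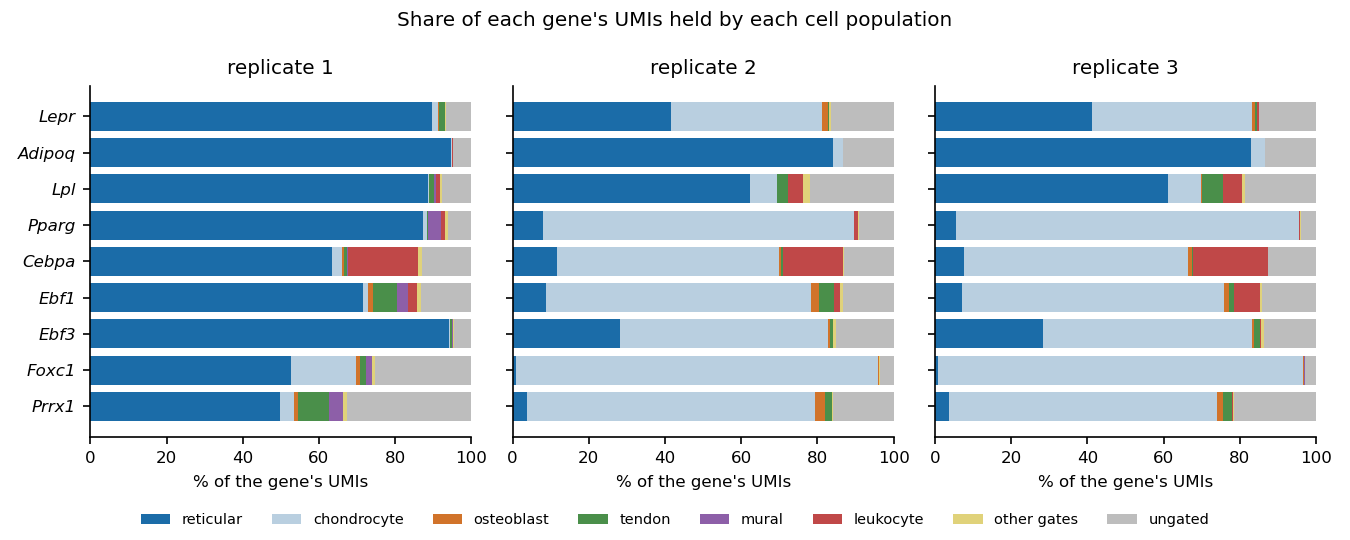
Share of each gene's UMIs (percent, horizontal axis) found in each gated population and in ungated cells, 1 panel per library. Reticular cells hold over 83% of Adipoq UMIs in each library, while their share of Pparg UMIs falls from 87.3% in replicate 1 to 5.62% in replicate 3.

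The UMIs of members were also set against those of Cxcl12 in the same gate and library, as a description; the part of free RNA in the members' levels outside the reticular gate was not tested. In reticular cells there were 8.43, 5.74 and 6.74 Lepr UMIs per 100 Cxcl12 UMIs. In chondrocytes there were 95.3, 116 and 150, and in tendon cells of replicate 1, 344. For Adipoq the ratio was 8.21, 15.0 and 14.5 in reticular cells and 15.1, 10.4 and 13.4 in chondrocytes. The ratio for Foxc1 was 1.53, 1.31 and 1.46 in reticular cells and 355, 2916 and 3645 in chondrocytes. Ebf1 stood at 2130 and 1262 per 100 Cxcl12 UMIs in tendon and mural cells of replicate 1, against 10.8 in the reticular cells.

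Differences between populations were tested on UMI sums per library and gate with edgeR's quasi-likelihood test, with the library as a block and Benjamini-Hochberg adjustment over all 12079 genes tested (adjusted p under 0.05 called). Gate markers were left out of the counts. The filter on low counts can keep a member through its reticular sums, and the members were chosen with earlier results known. Their counts of calls and medians are thus a description beside the shares over all genes, and no independent support. The test gives no SE, so each SE printed is approximate, derived from the fold change and the F statistic. Against osteoblast cells, all 9 genes were called higher in reticular cells, beside 22.9% of all genes called in either direction and 13.3% called higher. The median log2 fold change was 5.46 over the 9 genes and 0.12 over all genes. The differences were wide for Ebf3 (log2 fold change 5.81 ± 0.45 SE, adjusted p = 3.5e-08) and Lepr (5.46 ± 0.50, adjusted p = 1.9e-07). They were narrower for Ebf1 (2.22 ± 0.44, adjusted p = 0.00093), Foxc1 (1.94 ± 0.29, adjusted p = 6.1e-05) and Prrx1 (1.25 ± 0.31, adjusted p = 0.0057). Without replicate 3, Prrx1 was no longer called (1.13, adjusted p = 0.15). For Lpl (5 UMIs in osteoblast cells) and Adipoq (4 UMIs) the pooled ratio of CPM was 284 (95% counting interval 122 to 876) and 694 (271 to 2547). Here and below, pooling ignores the library and so mixes libraries in different shares. Replicate 1 gave 3883354 reticular UMIs (498530 and 399449 in the others) but 300196 osteoblast UMIs (877154 and 647266). Of the osteoblast UMIs, 4 of Lpl and 4 of Adipoq lay in replicate 1. Both genes were at 13.3 CPM there, against 707 and 1296 CPM in its reticular cells. Pparg, with 1 osteoblast UMI, had a pooled ratio of 384 (68.7 to 15163).

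Against chondrocytes, 8 of 9 were called higher in reticular cells, beside 41.5% of all genes called and 16% called higher. The median log2 fold change was 3.74 over the 9 genes and -0.22 over all genes. Adipoq had a log2 fold change of 10.38 ± 0.76 (adjusted p = 5.6e-09), Lpl of 9.17 ± 0.54 (adjusted p = 4.2e-10), Ebf3 of 5.998 ± 0.39 (adjusted p = 1.1e-09) and Lepr of 5.97 ± 0.46 (adjusted p = 1.1e-08). Cebpa (3.74 ± 0.28), Ebf1 (3.68 ± 0.45), Pparg (3.30 ± 0.39) and Prrx1 (2.29 ± 0.30) followed. Foxc1 was not called (-0.08, adjusted p = 0.97). Its CPM were higher in reticular cells in 3 of 3 libraries, with a pooled ratio of 1.39 (1.31 to 1.47), but the direction depended on the scaling, with a log2 fold change of 0.19 under DESeq2-type size factors (RLE). The scaling also moved the whole contrast. TMM called 1927 genes higher and 3085 lower with a median of -0.22, and RLE called 2587 higher and 2260 lower with a median of 0.05. The other 8 members kept their call and direction under both.

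Against tendon cells, 7 of 9 were called higher in reticular cells, beside 16.7% of all genes called and 9.5% called higher. The medians were 3.54 over the 9 genes and 0.15 over all genes. Lepr (4.40 ± 0.47, adjusted p = 2.3e-06), Ebf3 (4.25 ± 0.41, adjusted p = 6.8e-07), Cebpa (3.54 ± 0.41, adjusted p = 4.5e-06), Lpl (3.21 ± 0.42, adjusted p = 2.1e-05) and Foxc1 (2.27 ± 0.31, adjusted p = 3.4e-05) were called. Adipoq and Pparg, called too, had 1 UMI each in tendon cells and pooled ratios of 1537 (276 to 60718) and 212 (38.0 to 8398). Ebf1 (0.73 ± 0.42, adjusted p = 0.27) and Prrx1 (-0.10 ± 0.30, adjusted p = 0.89) did not pass the threshold. Prrx1 was higher in reticular cells in 1 of 3 libraries and Ebf1 in 3 of 3.

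**Figure D3:**
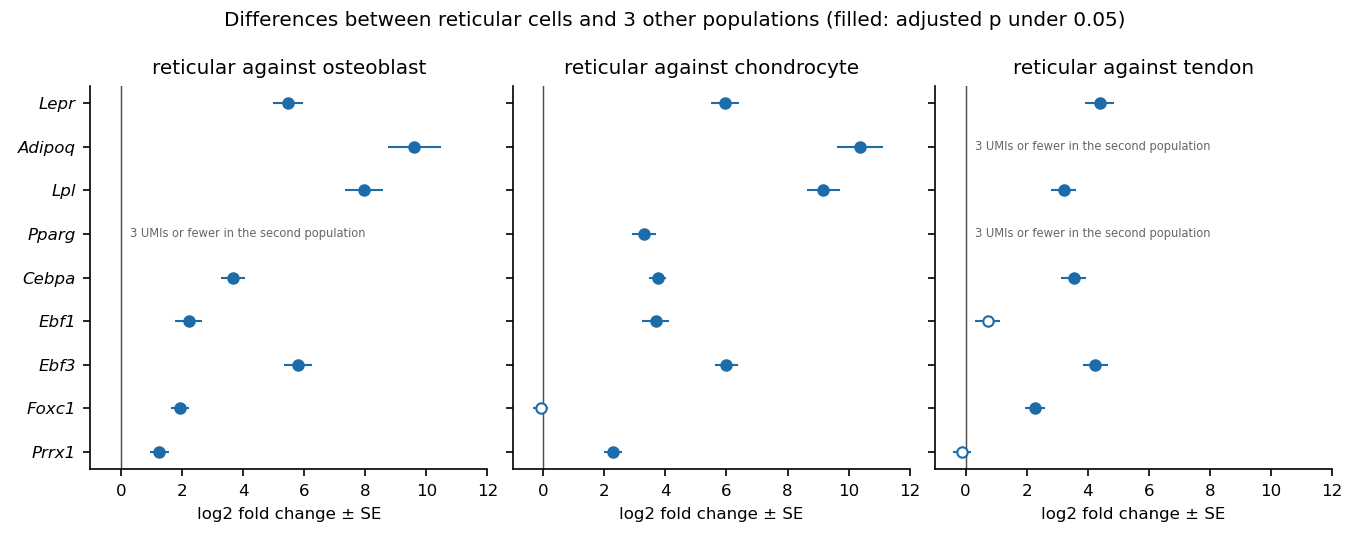
Log2 fold change of each gene between reticular cells and osteoblast, chondrocyte and tendon cells (horizontal axis, positive where reticular cells are higher). Bars are an approximate SE derived from the fold change and the F statistic of edgeR's test. Filled points have an adjusted p under 0.05, the values resting on 3 UMIs or fewer are left out, and the open points are Foxc1 against chondrocytes and Ebf1 and Prrx1 against tendon cells.

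Single reticular cells held several of the genes together. Cells were thinned to 2000 UMIs so that depth did not differ, which kept 557, 72 and 91 reticular cells. At that depth Lepr was detected in 86.0%, 80.6% and 79.1% of them, Adipoq in 72.2%, 93.1% and 90.1% and Ebf1 in 85.6%, 84.7% and 73.6%. Pparg was detected in 26.8%, 19.4% and 23.1% and Cebpa in 12.4%, 16.7% and 10.99%. Of cells with a Lepr UMI, 74.1%, 93.1% and 91.7% also had Adipoq, close to the share in all reticular cells of the same library. Of cells with Pparg, 12.8%, 21.4% and 9.52% also had Cebpa, against 12.4%, 16.7% and 10.99% of all reticular cells. For up to 500 cells per gate, the median reticular cell held 5 of the 9 genes in each library, and 66.5%, 72.2% and 62.6% held at least 5. The median was 1 in tendon and mural cells and 0 in chondrocytes, and 96.9%, 96.7% and 97.9% of erythroid cells held none.

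**Figure D4:**
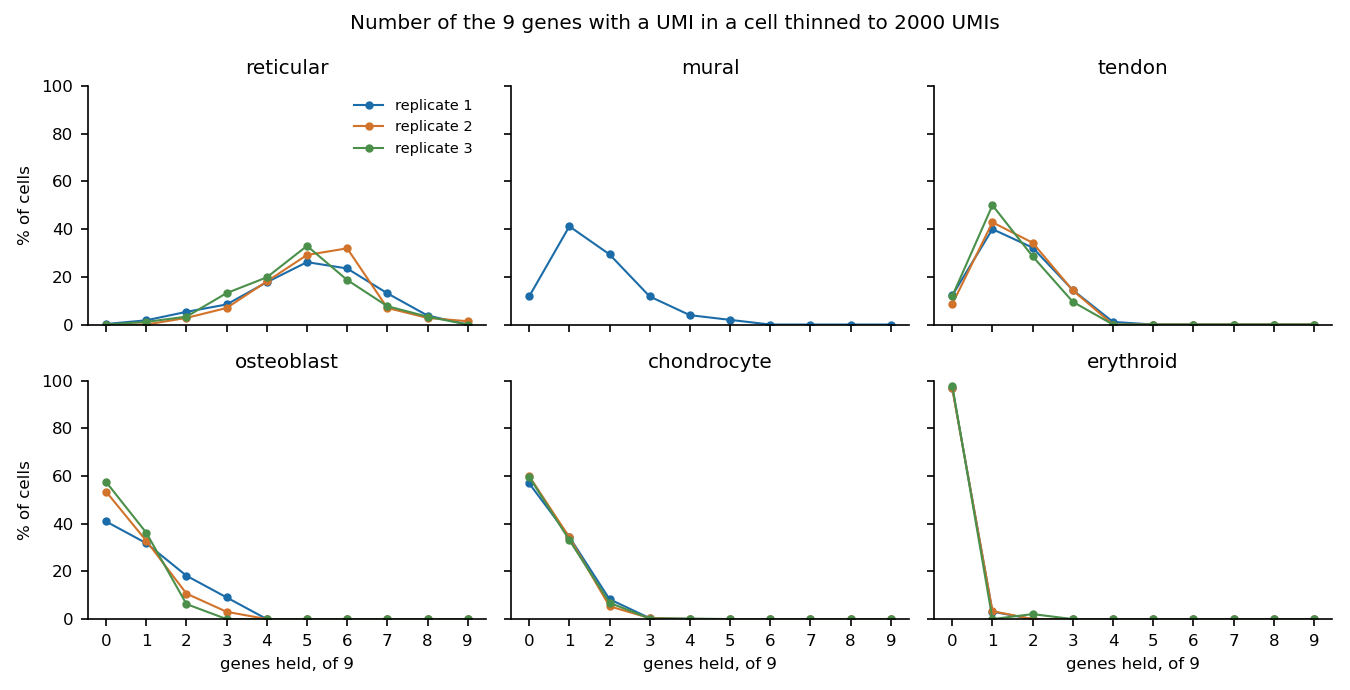
Percent of cells (vertical axis) by the number of the 9 genes with at least 1 UMI (horizontal axis), after thinning each cell to 2000 UMIs, 1 line per library. Reticular cells peak at 5 or 6 genes, tendon and mural cells at 1, and chondrocytes and erythroid cells at 0.

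At a lower common depth of 1000 UMIs, which kept more cells of the shallow populations, Lepr was detected in 63.2% ± 5.67 of reticular cells (without thinning, 93.5% ± 4.77). Unthinned, it was detected in 4.61% of erythroid cells of replicate 1 and in none of the 36 and 61 of the others, for which the exact 95% binomial limit is 9.74% and 5.87%. Adipoq was detected in 75.4% ± 16.0 (unthinned 93.0% ± 6.35) and Ebf3 in 42.4% ± 14.2 (unthinned 79.0% ± 8.24). Foxc1 was detected in 18.5%, 27.03% and 25.5% of reticular cells and in 10.0%, 12.9% and 13.7% of chondrocytes. Unthinned, Foxc1 was found in 52.0%, 60.7% and 49.9% of chondrocytes, at median depths of 7032, 10923 and 6601 UMIs, and in 3.29%, 8.33% and 1.64% of erythroid cells, at 10832, 10871 and 5959 UMIs.

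In replicate 1 the level of most members was higher in cells that held more reticular markers. There, among the cells whose best lineage was reticular, Lepr was at 90.9 CPM in the 44 cells with 3 of 8 markers, 534 CPM in the 33 with 4, 1068 CPM in the 103 with 6 and 1473 CPM in the 244 with all 8. Lpl was at 154, 163, 490 and 860 CPM in the same classes, and Pparg at 50.0, 13.0, 181 and 280 CPM. Like Pparg, Adipoq (323 and 293 CPM) and Cebpa (68.1 and 26.0 CPM) were lower with 4 markers than with 3. Prrx1 was at 282, 495, 362 and 291 CPM and so had no such order. In the other libraries, with 2 to 53 cells per class from 4 to 8 markers, Lepr had no such order. It was at 709, 2324, 752, 1077 and 893 CPM in replicate 2 and at 939, 959, 969, 935 and 1051 CPM in replicate 3. Adipoq in replicate 3 was at 1994, 1857, 1305, 2418 and 2256 CPM in these classes. Cells with fewer than 4 markers were never gated. Deeper cells hold more markers, and the part of depth in this order was not tested.

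**Figure D5:**
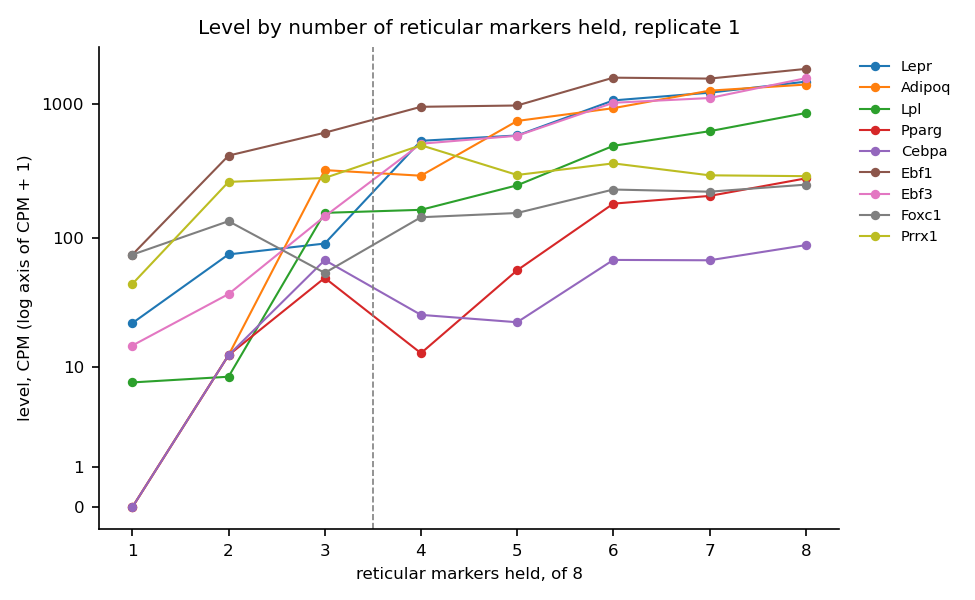
Level (CPM, log axis of CPM + 1) of each gene in cells of replicate 1 whose best lineage was reticular, by the number of the 8 reticular markers held. The dashed line separates cells with fewer than 4 markers, which were never gated. From 3 to 4 markers Lepr rises from 90.9 to 534 CPM, whereas Adipoq (323 to 293 CPM), Pparg (50.0 to 13.0 CPM) and Cebpa (68.1 to 26.0 CPM) fall and the other genes rise. Prrx1 is as high at 4 markers (495 CPM) as at 8 (291 CPM) or higher.

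Reticular cells are described as a more adipogenic and a more osteogenic kind, so they were split by whether a cell thinned to 2000 UMIs held a UMI of Alpl, Sp7 or Wif1. 106, 17 and 27 cells held such a UMI and 451, 55 and 64 did not. Sp7 is also an osteoblast gate marker, and cells holding many osteoblast markers stay outside the reticular gate. The split can thus lack the most osteogenic cells, and a cell without such a UMI at this depth can still express these genes. Of the 8 members tested (Cebpa was too low), none was called (edgeR's quasi-likelihood test), beside 0.583% of 2916 genes called and 0.412% called higher in cells with the osteogenic UMI. At an unadjusted p under 0.05, 1 member passed: Lpl, with a log2 fold change of -0.72 ± 0.19 (adjusted p = 0.093). Adipoq (-0.30 ± 0.15) and Lepr (-0.29 ± 0.17) had adjusted p of 0.86 and 0.93. DESeq2 called none of these members either.

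Genes around the members came from lists chosen for their roles, but with earlier results of these data known, so the lists are no independent support. Their counts stand beside the shares over all genes: 13.3%, 16% and 9.5% were called higher against osteoblast, chondrocyte and tendon cells, and 22.9%, 41.5% and 16.7% were called in either direction. In each list the filter on low counts can keep a gene that is high in only some populations, reticular cells among them. Genes low everywhere drop out, so counts and medians of the tested genes can lean towards reticular cells. Of 16 genes of the mature adipocyte, such as lipid droplet coats and adipokines, 7 had enough counts to be tested. Against osteoblast cells 2 were higher and 1 lower, against chondrocytes 5 were higher and 0 lower, and against tendon cells 3 were higher and 0 lower (edgeR; calls by adjusted p under 0.05). The median log2 fold change of the tested genes was 1.16, 3.08 and 3.48 in these comparisons, beside 0.12, -0.22 and 0.15 over all genes. With genes at 0 in a population set to the bound that 3 UMIs over the population allow, it was -0.07 against osteoblast cells and 1.82 against tendon cells, so the direction of the first rests on such genes. Fabp4, a fatty acid carrier, was at 277, 359 and 95.1 CPM in reticular cells, against 0, 0 and 1.54 CPM in osteoblast cells. Cd36, a fatty acid transporter, was at 8.24, 34.1 and 2.50 CPM against 0 in all 3. Both are also genes of endothelial cells, whose 8 markers summed to 192, 54.2 and 87.6 CPM in reticular cells. Of these markers 5, 3 and 1 were present, Pecam1 in every library, and Cdh5, Tie1 and Cldn5 were at 0 in all 3. Their part in the result was not tested. Car3, a carbonic anhydrase abundant in fat, was at 21.9, 46.1 and 118 CPM in reticular cells and at 340, 751 and 470 CPM in osteoblast cells, the gene of the list that was lower. Slc2a4, the insulin-responsive glucose transporter, was at 12.4, 10.0 and 7.51 CPM against 0.465, 0.502 and 0.691 CPM in chondrocytes. Named after their values were seen, Plin1, the lipid droplet coat of adipocytes, had 6 UMIs over all reticular cells, Retn 3, Cidec 2 and Lep, which encodes leptin, 0.

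Of 12 co-regulators of adipogenesis 11 were tested. 7 were higher and 0 lower against osteoblast cells, 6 and 0 against chondrocytes, and 5 and 1 against tendon cells, with medians of 1.24, 1.11 and 1.48 beside 0.12, -0.22 and 0.15 over all genes. These compare with 13.3%, 16% and 9.5% of all genes called higher. Cebpb, an early C/EBP factor, was at 739, 1679 and 1807 CPM in reticular cells and 360, 254 and 270 CPM in osteoblast cells (log2 fold change 1.93 ± 0.40). Ebf2, the remaining EBF factor of fat, was at 28.3, 34.1 and 52.6 CPM against 30.0, 0 and 0 CPM in osteoblast cells and 0.930, 0.990 and 0.691 CPM in chondrocytes. Zfp423, a factor of preadipocytes, was at 163, 70.2 and 65.1 CPM against 8.83, 11.6 and 11.6 CPM in chondrocytes (2.42 ± 0.34). The gene that was lower against tendon cells was Cebpd (-0.73 ± 0.24, adjusted p = 0.040), named after its value was seen.

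Of 10 regulators that oppose adipogenesis 8 were tested, with 1 higher and 3 lower against osteoblast cells, 2 and 3 against chondrocytes, and 2 and 1 against tendon cells. In either direction 22.9%, 41.5% and 16.7% of all genes were called, and the 5 of 8 called against chondrocytes are to be read against the second of these. The medians were -0.44, -0.59 and 0.33, and -0.44, 0.36 and 0.05 with a gene at 0 set to its bound. This list holds Runx2 and Sox9, which also define bone and cartilage. Runx2 was at 741, 443 and 543 CPM in reticular cells, lower than in osteoblast cells (-0.75 ± 0.26, adjusted p = 0.042) and higher than in tendon cells (1.70 ± 0.28). Sox9 was at 111, 138 and 145 CPM against 1867, 1345 and 1533 CPM in chondrocytes. Nr2f2 was higher than in osteoblast cells (1.36 ± 0.43) and chondrocytes (3.42 ± 0.37). Klf2, which restrains Pparg, was lower than in osteoblast cells (-1.05 ± 0.21) and tendon cells (-0.63 ± 0.21, adjusted p = 0.049).

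All 16 reticular stroma genes that were no gate markers were tested, and 15 were higher and 0 lower against osteoblast cells, 14 and 0 against chondrocytes and 14 and 0 against tendon cells. The medians were 5.71, 4.03 and 3.96 (5.32 and 3.91 at the bounds, against osteoblast and tendon cells). Grem1, a BMP antagonist, was at 710, 393 and 563 CPM in reticular cells and 6.66, 4.56 and 3.09 CPM in osteoblast cells. Serping1, a complement inhibitor, was at 1730, 2497 and 2273 CPM against 3.72, 1.86 and 1.81 CPM in chondrocytes. Il7, the lymphoid cytokine, was at 74.9, 90.3 and 52.6 CPM against 0 in tendon cells of all 3 libraries, which allows up to 5.38, 11.5 and 15.6 CPM. Of 12 genes of lipid uptake and handling 11 were tested, with 5 higher and 1 lower against osteoblast cells, 5 and 2 against chondrocytes and 5 and 0 against tendon cells, with medians of 1.17, 0.46 and 1.61. Of all genes 22.9%, 41.5% and 16.7% were called in either direction. Apoe, a lipoprotein component, was at 4535, 9207 and 9325 CPM against 170, 67.3 and 81.9 CPM in osteoblast cells. Angptl4, an inhibitor of Lpl, was at 194, 289 and 215 CPM against 73.3, 6.84 and 7.73 CPM. The lower gene against osteoblast cells was the lipoprotein receptor Vldlr, at 7.98, 6.02 and 15.0 CPM against 73.3, 70.7 and 64.9 CPM in osteoblast cells.

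Over the 21 sums of a gate in a library, which share libraries and depth, the genes most alike each member were found among 11453 genes by Pearson's r of log2(CPM + 1), as a description. Lepr was most like Hmgcll1 (r = 0.96) and Fzd5, and Adipoq was most like Kng1 (0.97), Gdpd2 and Cxcl5. Lpl was most like Igfbp4 (0.91), Sult1a1 and Podn. Pparg was most like Kcnq3 (0.92), Mark1 and Gm34907, and Cebpa was most like Man2b1 (0.89), Rab9 and Sh2d3c. Ebf1 was most like Plcl1 (0.97), Wls and Atn1, and Ebf3 was most like Fbln5 (0.95), Fgf7 and Nectin2. Foxc1 was most like Vasn (0.96), Irx3 and Errfi1, and Prrx1 was most like Spry4 (0.97), Meis2 and Ephb4. Between members, r was highest for Lepr with Ebf3 (0.86) and lowest for Cebpa with Foxc1 (0.31). Ebf1 had 0.83 with Prrx1 and 0.72 with Ebf3.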

How the data were processed

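3 libraries of 1 group were analysed, per the labels replicates 1 to 3 of sorted Alcam+Sca-1- BLCs. The authors counted UMIs with Cell Ranger (version 7.1.0) on mouse build mm10, and the deposited values are raw UMI counts per gene and cell barcode. Whether intronic reads were counted is not given in the sources used here. The tables held 2606, 7172 and 10529 barcodes and 20985636, 79905165 and 69890252 UMIs. The study states a larger total number of cells.

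Barcodes were dropped if they had fewer than 200 genes or more than 20% mitochondrial UMIs (79, 447 and 299 in all). Cells were gated by 10 marker lists; cells whose leading lineage was not ahead by 0.25 stayed ungated. No doublet caller was run, and gated cells can still hold markers of other lineages, so doublets may remain. 57.5%, 90.3% and 88.4% of cells were gated. CPM are UMIs scaled to a total of 1000000 per gate and library, with exact Poisson intervals. Sums of at least 10 cells were fitted together with edgeR (version 4.0.16; filterByExpr, TMM, glmQLFit), the library as block. The block is given by origin, since populations of a library share its preparation. Over 18 pairs of populations of the same library the deviations correlated at 0.0085 to 0.22 (14778 genes). Pairs from different libraries correlated at -0.17 to 0.090, those between replicates 2 and 3 at 0.0026 to 0.090, so the ranges overlapped. Tests with fibroblasts were not run, since 1 library alone had 10 such cells. Alternatives were RLE factors, DESeq2 (version 1.42.0), no filter, no block, each replicate left out, other gates, other thinning and other cell filters. The fit was tested on simulated data. Versions of R and Python were 4.3.3 and 3.11.15.

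All members are named; of each list up to 4 called genes with the largest fold were eligible, and of alike genes the top 3, some of which are not reported here. The members, gates and lists were chosen with earlier results of these data known. Positions are from GENCODE M21, promoters from RefSeq. A protein comparison of Ebf1 and Ebf3 was not made.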

Additional observations from a re-analysis of the deposited data

How the results depend on the processing

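Of 324 refitted member folds between gates, 315 kept direction and call, 1 lost its call (Prrx1 against osteoblast cells without replicate 3, 1.13) and 8 reversed, none of the 8 called. Foxc1 against chondrocytes turned to 0.19 with RLE, 0.20 with DESeq2, 0.10 and 0.14 without replicate 2 and 3 (-0.081 without replicate 1), 0.089 with markers held at 2 UMIs, 0.069 with a stricter gate share and 0.082 without the deepest 5% of cells. Prrx1 against tendon cells turned to 0.11 with the stricter share. Leaving out 1 replicate gave 1200 to 3122 called genes against osteoblast cells (2762 with all), 2918 to 4440 against chondrocytes (5012) and 1050 to 2034 against tendon cells (2015). The low counts came without replicate 2 or 3 (the cause was not tested), and member calls other than Prrx1 held.

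In the osteogenic split 17 genes were called, 0 to 43 with 1 replicate left out, 2 with DESeq2, 4 with thinning to 1000 UMIs and 0 with edgeR without the replicate block (43 of 2431 genes at an unadjusted p under 0.05). The 0 came without replicate 1 (90 at an unadjusted p under 0.05) and the 43 without replicate 2. Pparg turned to 0.29 without replicate 1 (-0.85 without replicate 3) and to 0.39 with thinning to 1000 UMIs, and Prrx1 to -0.050 with the latter; no member was called. The causes were not tested. Removing the replicate block changed no call of a member. Of 72 levels 71 moved by less than 1 SD, the other being Foxc1 with the gate set by Cxcl12 alone (227 CPM). Of 81 shares 14 moved, 9 of them without thinning. Fibroblasts, mural cells and glia reached 10 cells in 1 library each, so no spread can be given for them.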
